A study of Macaca fascicularis with 64 samples.

Results

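The cells described here are the glucagon-producing α-cells of cynomolgus monkey islets, ordered by how much macaque RNA was counted in each cell relative to the spike-in RNA added to it. They were chosen by measured values. A cell was taken as an α-cell when it held over 800 macaque genes and over 10000 UMIs, counting macaque and spike-in UMIs together. GCG also had to be the highest of the hormone genes GCG, INS, SST and PPY. It had to reach at least 20000 CPM (counts scaled to 1e+06 macaque UMIs) and at least 2 times the next hormone. The rule found 4401 α-cells among 5908 retained cells and 6141 picked cells. The RNA content of a cell was taken as its macaque UMIs divided by its spike-in UMIs (ERCC and RGC RNAs), and is called the UMI ratio below. In each animal the α-cells were ranked by this ratio and split into 3 equal parts, so that 1462 cells lay in the top tertiles and 1462 in the bottom tertiles, with 55 to 119 cells per animal in each.

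The islets came from 16 untreated animals, 8 young and 8 old, each age group with 4 females and 4 males. A mouth pipette was used to pick the cells, whose transcripts were counted with unique molecular identifiers (UMIs) in 64 libraries, 4 per animal. The tissues were collected on sequential days, so that animal and day cannot be told apart. Between 165 and 359 α-cells were found per animal and 31 to 94 per library, with 2223 to 439214 macaque UMIs per α-cell and a median of 64894. Under 10000 macaque UMIs were counted in 32 α-cells, 29 of them in the bottom and 3 in the top tertiles. No cell name was shared between libraries, and the 96 well barcodes recurred in them by design. No 2 cells had identical counts. At the edge of the rule, the lowest GCG level of a member was 20027 CPM and the highest level kept out was 19718 CPM. Among cells with GCG as the highest hormone, the lowest ratio to the next hormone was 2.01 in a member and the highest was 1.99 outside. Of the 102 such cells left out, 87 failed this ratio.

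α-cells release glucagon, the hormone that raises blood glucose, from dense-core granules. Proglucagon is made by ribosomes on the endoplasmic reticulum (ER), carried through the Golgi and cut by the convertase PCSK2. A cell that makes more RNA, or a larger cell, yields more transcripts for the same amount of spike-in, which is why the ratio of cell RNA to spike-in is used as a measure of RNA content. The same ratio also moves with the volume and loss of spike-in, so that it is not a measure of cell size.

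The label α-cell held against markers the rule did not use. Of 13 listed α-cell genes, 11 were higher in the α-cells than in the β-cells of the same animal in 16 of 16 animals, where GCG is 1 of the 11 and was used by the rule. IRX2, a transcription factor of α-cells, had a mean of 487 CPM ± 151 (SD, n = 16 animals) in α-cells and 35.3 CPM ± 15.7 in β-cells. TM4SF4, a membrane protein of α-cells, had 3149 CPM ± 798 against 439 CPM ± 147. LOXL4 was higher in 15 animals. FXYD5 was higher in α-cells in 2 animals only, with 37.4 CPM ± 35.6 against 145 CPM ± 87.0.

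The label of high RNA content was less clear. In the bottom tertiles the median UMI ratio per animal was lowest at 10.7, had a median of 13.3 over animals and was highest at 18.7. In the top tertiles these values were 18.5, 24.1 and 32.5. Within each animal the medians of the tertiles stood 1.46 to 2.05 times apart, which the ranking fixes. The step lay in the spike-in UMIs rather than in the macaque UMIs. Spike-in UMIs per cell had a median over animals of 4965 in the bottom tertiles (2952 to 6524) and 2624 in the top tertiles (1090 to 4033), and they were lower in the top tertile in 16 of 16 animals. Macaque UMIs per cell had medians of 61776 (45576 to 87700) and 63320.2 (29288 to 90745), and were higher in the top tertile in 8 animals and lower in 8. The cells of the top tertiles are therefore cells with a high ratio, and in 8 animals their median held fewer macaque UMIs than that of the bottom tertile.

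**Figure D1:**
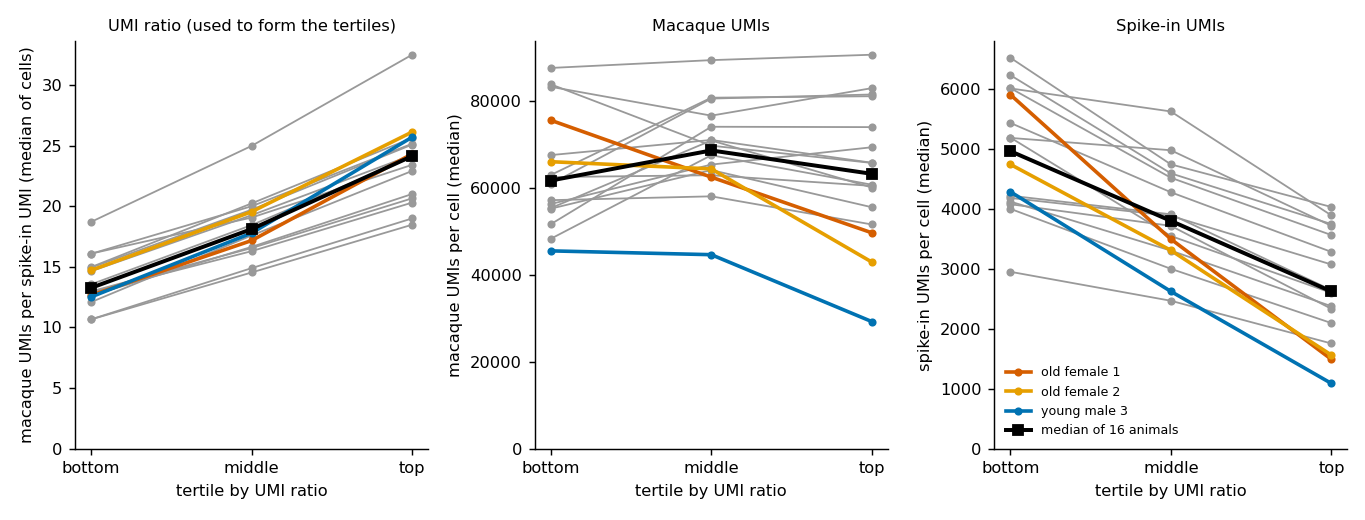
The 3 panels plot, for each animal, the median UMI ratio, the median macaque UMIs per cell and the median spike-in UMIs per cell in the bottom, middle and top tertile of α-cells. Each line is 1 animal, black squares are the median of 16 animals, and 3 animals are in colour. Spike-in UMIs fall in 16 of 16 animals from the bottom to the top tertile, while macaque UMIs rise in 8 and fall in 8.

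In 3 animals, old female 1, old female 2 and young male 3, the macaque UMIs per cell of the top tertile were 0.657, 0.6503 and 0.643 times those of the bottom tertile, under 0.7 times in each. Their spike-in UMIs were 0.253, 0.329 and 0.254 times those of the bottom tertile. The top tertile of these animals held fewer genes per cell (0.801, 0.615 and 0.722 times) and more GCG (1.19, 1.35 and 1.62 times). In the other 13 animals, genes per cell were higher in the top tertile in 13 of 13. Calls that change without these 3 animals are given beside the result, a choice made after the data were seen, and the part of depth in them was not tested.

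Over the single cells of an animal, the ratio moved with both counts. The correlation of the log2 UMI ratio with log2 spike-in UMIs was negative in 16 of 16 animals (median r = -0.38, from -0.68 to -0.20), while that with log2 macaque UMIs was positive in 13 and negative in 3 (median r = 0.28, from -0.22 to 0.66). The UMIs of a cell are part of both measures, so these are descriptions. Of the variance of the log2 ratio over all α-cells, 10.2% lay between animals, 5.93% between libraries of an animal and 83.9% between cells of a library. The share of a library's α-cells that fell in the top tertile of its animal was between 8.47% and 61.5%. The 5th and 95th percentiles of the ratio over all α-cells were 9.59 and 29.9. Cells at the boundaries were close together: the highest cell of the bottom tertile lay between 12.6 and 21.98 in the 16 animals and the next cell was at most 0.184 higher, while the lowest cell of the top tertile lay between 15.96 and 28.05, at most 0.301 above the cell before it.

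The first question was which genes took a larger or smaller share of the RNA in α-cells with a high ratio. For each animal the UMI counts of a tertile's cells were summed and the sums were compared within animals with edgeR's quasi-likelihood test and Benjamini-Hochberg adjustment. Of 11116 genes tested, 91 were higher in the top tertile (0.819%) and 11 were lower (0.099%). An unadjusted p under 0.05 was found for 1138 of the 11116. The changes were small. The called rises had a median log2 fold change of 0.31, from 0.17 to 1.82, and the called falls one of -0.32, from -0.69 to -0.20, while the median over all genes tested was 0.01. For every called gene the range of the 16 bottom sums overlapped with that of the 16 top sums, and the difference lay within animals. Without the 3 animals named above, 152 genes rose (1.35%) and 41 fell (0.365%), and 89 of the 102 calls were shared. Of the 91 rises, 43 are listed under Ensembl identifiers. Some of these carry the name of a ribosomal protein gene (RPS26, RPL26 or RPL32), and the rest could not be named.

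Genes of the cytosolic ribosome, which make up the subunits that translate mRNA, were the group with the most calls. Of 57 such genes listed by symbol 55 were tested, and 20 rose and 0 fell, against 0.819% of all genes that rose. Called rises under Ensembl identifiers with RPS26, RPL26 or RPL32 attached are not in this list. The log2 fold change was positive in 54 of the 55, with a median of 0.17. The 20 called genes rose by 0.18 to 0.36. Every one of them was higher in at least 12 of 16 animals. Without the 3 animals, 19 of the 55 rose and 0 fell, and 17 of the 20 calls were shared.

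RPL30, a protein of the large subunit, had between 404 and 1288 CPM in the bottom tertiles (median 908) and between 533 and 1508 CPM in the top tertiles (median 1178). It was higher in the top tertile in 15 of 16 animals, with a log2 fold change of 0.36 ± 0.06 (SE, adjusted p = 0.00169, edgeR). RPS15A, of the small subunit, went from a median of 715 CPM (286 to 1060) to 891 CPM (365 to 1265), with a log2 fold change of 0.33 ± 0.06 (adjusted p = 0.00453). The pattern was the same for RPL31, another protein of the large subunit, which was higher in 16 of 16 animals. Its values were 498 to 1290 CPM in the bottom tertiles and 708 to 1501 CPM in the top tertiles, with a log2 fold change of 0.33 ± 0.07 (adjusted p = 0.0110). RPLP2, a stalk protein of the large subunit, had medians of 715 and 854 CPM and a log2 fold change of 0.29 ± 0.06 (adjusted p = 0.0102). RPL3, the most abundant tested gene of the list, did not pass the test, with a log2 fold change of 0.05 (adjusted p = 0.759). RPL41 and RPL37 were next in level. RPL41 rose by 0.20 ± 0.04 (adjusted p = 0.0112), and RPL37 had a value of 0.14 (adjusted p = 0.0703).

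In the summed UMIs, the listed ribosomal protein genes held between 4.38% and 7.21% of the macaque UMIs of the bottom tertiles (median 5.86%). Their median share was 6.61% in the middle tertiles. In the top tertiles they held between 4.995% and 7.59% (median 6.66%). The share was higher in the top than in the bottom tertile in 16 of 16 animals, by 1.01 to 1.36 times, although the ranges over animals overlapped. The middle tertile was above the bottom tertile in 13 animals, and the top tertile was above the middle in 12. Over single cells, the correlation of this share with the log2 ratio was positive in 14 of 16 animals (median r = 0.35). Cells of an animal share its libraries, and the points share their depth.

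**Figure D2:**
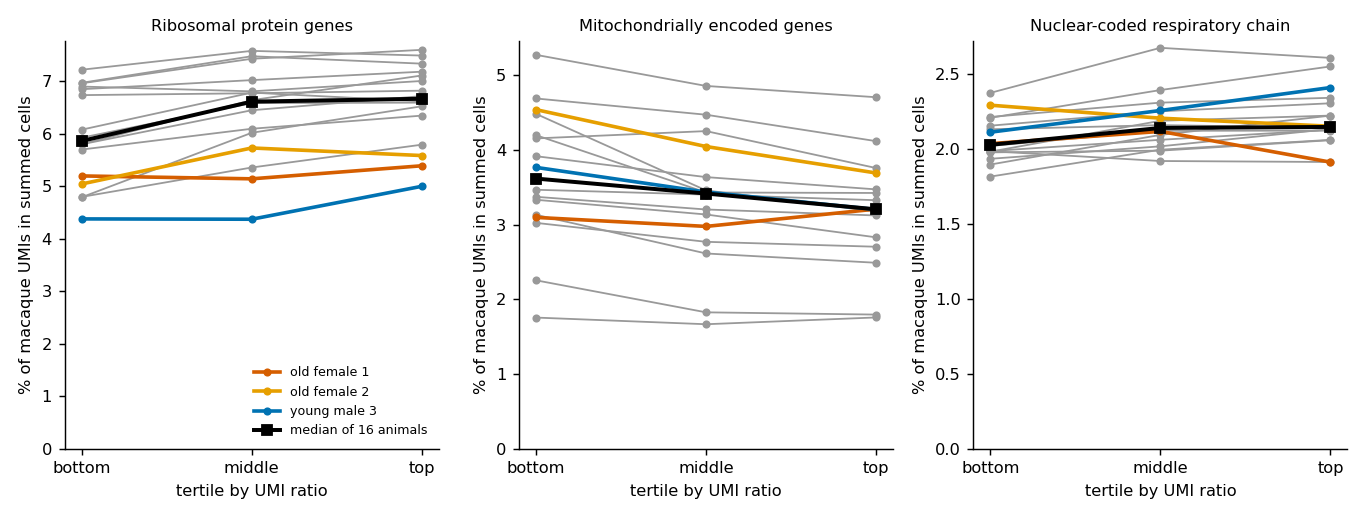
The panels plot the percent of macaque UMIs held by ribosomal protein genes, by mitochondrially encoded genes and by nuclear-coded respiratory chain genes in the summed α-cells of each tertile, with 1 line per animal and the median of 16 animals in black. The ribosomal share is higher in the top than in the bottom tertile in 16 animals, the mitochondrial share is lower in 14, and the nuclear-coded respiratory chain share is higher in 13.

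The calls among genes of the mitochondrial genome were falls. The mitochondrial DNA codes for subunits of the respiratory chain and of ATP synthase, which are made inside the organelle. Of 13 such genes tested 3 fell and 0 rose, against 0.099% of all genes that fell. Their median log2 fold change was -0.06. Without the 3 animals 4 fell, with a median of -0.11, while with cells whose GCG was at least 5 times the next hormone 1 fell and the median was 0.01. COX3, a subunit of cytochrome c oxidase (complex IV), had between 1583 and 11722 CPM in the bottom tertiles (median 7177) and between 1429 and 9308 CPM in the top tertiles (median 5882). It was lower in the top tertile in 15 of 16 animals, with a log2 fold change of -0.32 ± 0.04 (adjusted p = 4.2e-04). The fall was called in 30 of 31 alternative fits. Of these fits 16 leave out 1 animal each, and the fit on ERCC alone gave the same numbers of calls as the main fit. Counts over the 31 fits are therefore not counts of independent checks. ND5, a subunit of complex I, was lower in 15 animals, with medians of 1422 and 1227 CPM and a log2 fold change of -0.21 ± 0.05 (adjusted p = 0.0207).

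COX2, also of complex IV, had medians of 10379 and 7744 CPM and a log2 fold change of -0.23 ± 0.06 (adjusted p = 0.0391). It was lower in the top tertile in 13 animals, and was called lower in 15 of 31 alternative fits. In 2 animals COX2 was far below the others, with 19.8 and 26.7 CPM in the bottom and top tertile of young male 1 and 411 and 531 CPM in those of old male 1, against at least 5465 CPM elsewhere. The other 10 genes did not pass. Among them ATP6 had a log2 fold change of -0.16 (adjusted p = 0.0793), which was -0.20 and passed the test without the 3 animals (adjusted p = 0.00668). ND2 had a value of -0.10 (adjusted p = 0.341) and ND3 one of 0.20 (adjusted p = 0.143), and the values of 4 of the 13 were above 0. The list as a whole held between 1.76% and 5.27% of the UMIs of the bottom tertiles (median 3.62%) and between 1.76% and 4.71% of those of the top tertiles (median 3.21%). Its share was lower in the top tertile in 14 of 16 animals. The exceptions were 2 old animals.

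The nuclear-coded genes of the respiratory chain and ATP synthase, which work in the same complexes and are imported from the cytosol, had values mostly above 0. Of 48 tested 4 rose and 0 fell, against 0.819% of all genes that rose. The log2 fold change was positive in 41, with a median of 0.09. The risers were COX7C of complex IV, NDUFB9 of complex I, UQCRQ of complex III and ATP5I of ATP synthase. COX7C was higher in 16 of 16 animals, with 1028 to 1809 CPM in the bottom tertiles (median 1292), 1239 to 2024 CPM in the top tertiles (median 1370) and a log2 fold change of 0.19 ± 0.04 (adjusted p = 0.0166). NDUFB9 rose by 0.33 ± 0.08 (adjusted p = 0.0297), UQCRQ by 0.21 ± 0.05 (adjusted p = 0.0393) and ATP5I by 0.22 ± 0.05 (adjusted p = 0.0412). The call of ATP5I was lost without the 3 animals (adjusted p = 0.140). Of 31 alternative fits, 26 called COX7C higher, 15 NDUFB9, 14 UQCRQ and 9 ATP5I. NDUFB2 and COX8A, the next in level after COX7C, had log2 fold changes of 0.01 (adjusted p = 0.952) and 0.16 (adjusted p = 0.183). COX8A passed the test without the 3 animals, at 0.18 (adjusted p = 0.0288), and the list then had 5 rises.

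**Figure D3:**
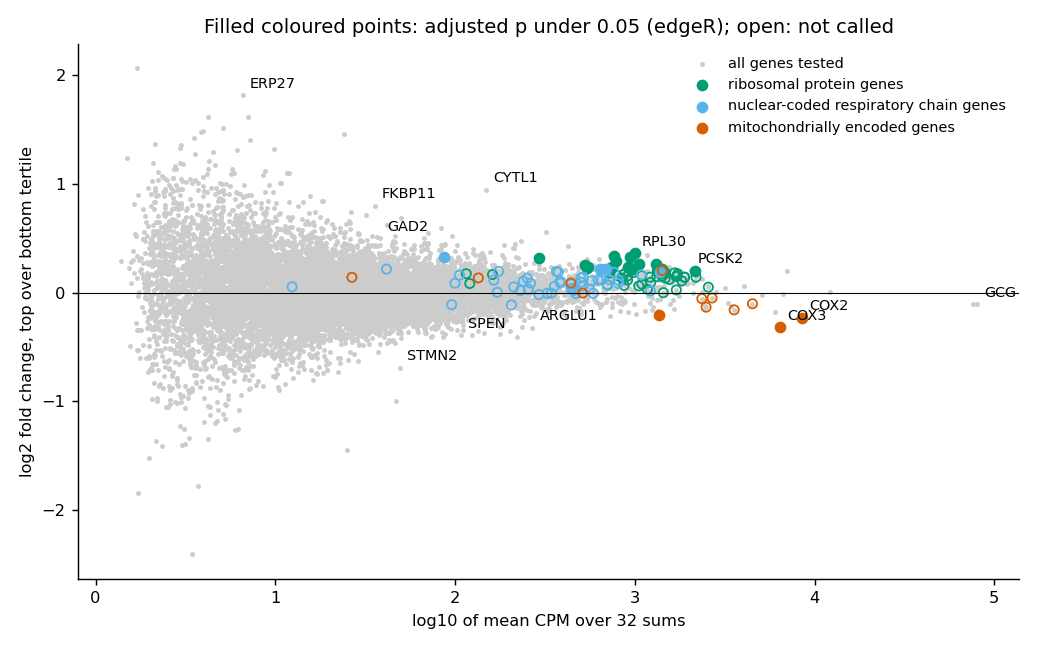
Each point is 1 of 11116 genes, with the log10 of its mean CPM over the 32 sums on the x axis and its log2 fold change in top over bottom tertiles on the y axis. Of the coloured genes, 20 of 55 listed ribosomal protein genes and 4 of 48 nuclear-coded respiratory chain genes are called higher. Of the mitochondrially encoded genes, 3 of 13 are called lower (filled points, edgeR). Over all genes, 0.819% are called higher and 0.099% lower.

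Of the list of glucagon granule cargo, 2 of 18 genes rose and 0 fell, against 0.819% of all genes that rose. The list also held genes that are not cargo, among them SCGN, CRYBA2 and FXYD5. PCSK2, the convertase that cuts proglucagon to glucagon, had between 1129 and 2900 CPM in the bottom tertiles (median 1901) and between 1247 and 3520 CPM in the top tertiles (median 2207). It was higher in the top tertile in 15 of 16 animals, with a log2 fold change of 0.21 ± 0.04 (adjusted p = 0.00609). SCG2, a granin of dense-core granules, had medians of 1471 and 1651 CPM and rose by 0.23 ± 0.05 in 14 animals (adjusted p = 0.0195), a call lost without the 3 animals (adjusted p = 0.0610). For the hormone gene itself the values are given as a description only. GCG, which the rule used to choose the cells, had between 58630 and 103051 CPM in the bottom tertiles (median 80763) and between 53898 and 119419 CPM in the top tertiles (median 69502), and was lower in the top tertile in 13 animals, with a log2 fold change of -0.11 ± 0.05 (adjusted p = 0.390). Without the 3 animals the value was -0.20. Since GCG chose the cells, its tests are not read as results. TTR, the transport protein transthyretin and next in level, had -0.10 (adjusted p = 0.259), and passed the test without the 3 animals (adjusted p = 0.00903).

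The other hormones stood below GCG in level, which the rule fixed, and their tests are not read either. INS, the β-cell hormone, had medians of 6206 and 6779 CPM and a log2 fold change of 0.20 ± 0.07 (adjusted p = 0.250). SST, of δ-cells, had a value of 0.16 ± 0.11 (adjusted p = 0.692) and PPY, of PP-cells, one of -0.18 ± 0.14 (adjusted p = 0.763).

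Other steps of the secretory pathway gave few calls. Of all genes tested, 0.819% rose, and 1138 of 11116 had an unadjusted p under 0.05. Of 23 ER chaperones and folding enzymes none was called by edgeR, with 4 at an unadjusted p under 0.05 and a median of 0.08, and HSPA5, the main ER chaperone, had a log2 fold change of 0.02 (adjusted p = 0.951). FKBP11, a prolyl isomerase of the secretory pathway that lies outside that list, showed the largest rise by the naming rule. It had 3.88 to 56.1 CPM in the bottom tertiles (median 25.0) and 4.88 to 78.8 CPM in the top tertiles (median 46.6). FKBP11 was higher in 15 of 16 animals, and rose by 0.80 ± 0.16 (adjusted p = 0.0110). The call held in 28 of 31 alternative fits and was lost after thinning (adjusted p = 0.100, edgeR). TMED3, a cargo receptor between ER and Golgi, was the 1 gene called among 33 of its list, with a log2 fold change of 0.27 ± 0.06 (adjusted p = 0.0244). HEXA, a lysosomal hydrolase, was the 1 called among 27 lysosome and autophagy genes, at 0.28 ± 0.07 (adjusted p = 0.0412). It was called in 14 of 31 alternative fits. Of 28 translation factors 1 rose, TPT1, by 0.17 ± 0.04 (adjusted p = 0.0305), while EEF1A1, the most abundant of them, had a value of -0.03 (adjusted p = 0.915). In the other 13 animals, 1 ER chaperone or folding enzyme fell, and 2 lysosome and autophagy genes and 3 translation factors rose.

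Beyond these lists, the largest rises by the naming rule were those of genes with varied roles. HTRA1, a secreted serine protease, had 16.8 to 46.8 CPM in the bottom tertiles (median 26.1) and 21.3 to 64.6 CPM in the top tertiles (median 37.1). It rose by 0.52 ± 0.11 in 16 of 16 animals (adjusted p = 0.0110). The call held in 25 of 31 alternative fits and was lost after thinning (adjusted p = 0.0667, edgeR). ACYP2, an acylphosphatase, rose by 0.51 ± 0.12 (adjusted p = 0.0272). GAD2, which makes the transmitter GABA, rose by 0.50 ± 0.12 in 15 animals (adjusted p = 0.0354), and lost its call without the 3 animals (adjusted p = 0.0675). It was called higher in 8 of 31 alternative fits. By macaque UMIs alone it was called lower (-0.68, adjusted p = 0.00141, edgeR). PAPPA2, a protease of IGF-binding proteins, rose by 0.34 ± 0.08 (adjusted p = 0.0305), C4orf48 by 0.35 ± 0.07 (adjusted p = 0.0144) and ITFG1 by 0.31 ± 0.06, the last in 16 of 16 animals (adjusted p = 0.0112). The 3 calls with a log2 fold change above 1 were genes of low level, named here after their values were seen: ERP27, an ER protein (6.59 CPM), CALY (11.96 CPM) and the gene listed as ENSMFAG00000030357 (10.8 CPM).

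The falls that met the naming rule and have not yet been described were SPEN, ARGLU1 and TPM3. SPEN, a transcriptional corepressor, had 69.4 to 190 CPM in the bottom tertiles (median 119) and 60.3 to 156 CPM in the top tertiles (median 88.1), and was lower in 15 of 16 animals, with a log2 fold change of -0.39 ± 0.08 (adjusted p = 0.0112). ARGLU1, a cofactor of transcription and splicing, had medians of 305 and 241 CPM and fell by 0.32 ± 0.06 on the log2 scale in 15 animals (adjusted p = 0.00649). TPM3, an actin-binding tropomyosin, had a log2 fold change of -0.22 ± 0.05 (adjusted p = 0.0262). The other called falls were named after their values were seen. CDC5L and RBM17, of the spliceosome, had log2 fold changes of -0.37 and -0.34 (adjusted p = 0.0237 and 0.0459), and both lost the call without the 3 animals (adjusted p = 0.0644 and 0.0984), and STMN2, a regulator of microtubules, one of -0.69 ± 0.16 (adjusted p = 0.0320). The last 2 are listed as ENSMFAG00000003406 and ENSMFAG00000037443, the latter with an adjusted p of 0.0540 without the 3 animals. In the lists for these processes, none of 31 genes of RNA polymerase II and splicing (3 at an unadjusted p under 0.05) and none of 25 chromatin and histone genes (7 at an unadjusted p under 0.05) was called by edgeR. Of all 11116 genes tested, 1138 had an unadjusted p under 0.05. The chromatin genes had a median of -0.15, and 20 of 25 were below 0. Without the 3 animals 3 of them fell.

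The remaining lists gave no call by edgeR among their tested members. They were α-cell transcription factors (14 tested, median -0.10), exocytosis machinery (18, -0.08), ion channels (21, -0.08), nutrient and hormone receptors (9, 0.24), ribosome biogenesis (20, 0.01), the ER translocon (27, 0.04), glycolysis (12, 0.02), the TCA cycle (17, 0.04), cholesterol and fatty acid synthesis (22, -0.09), the proteasome (40, -0.01), the ATF4 response (17, 0.12), immediate-early genes (22, 0.00), heat shock proteins (15, 0.08), NF-kB genes (10, -0.04), interferon response and antigen presentation (21, -0.09), apoptosis regulators (14, 0.01), hypoxia response (16, 0.03), antioxidant enzymes (20, 0.05) and the cell cycle (17, -0.07). Each had between 0 and 5 members at an unadjusted p under 0.05, against 1138 of all 11116 genes tested. When the 3 animals were left out, 1 α-cell transcription factor fell, and 1 glycolysis gene and 2 antioxidant enzymes rose. FOS, EGR1 and NR4A1, which respond to handling of cells, had log2 fold changes of 0.02, -0.07 and -0.09. Of 18 cytoskeleton genes 1 was called, the fall of STMN2, against 0.099% of all genes that fell.

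**Figure D4:**
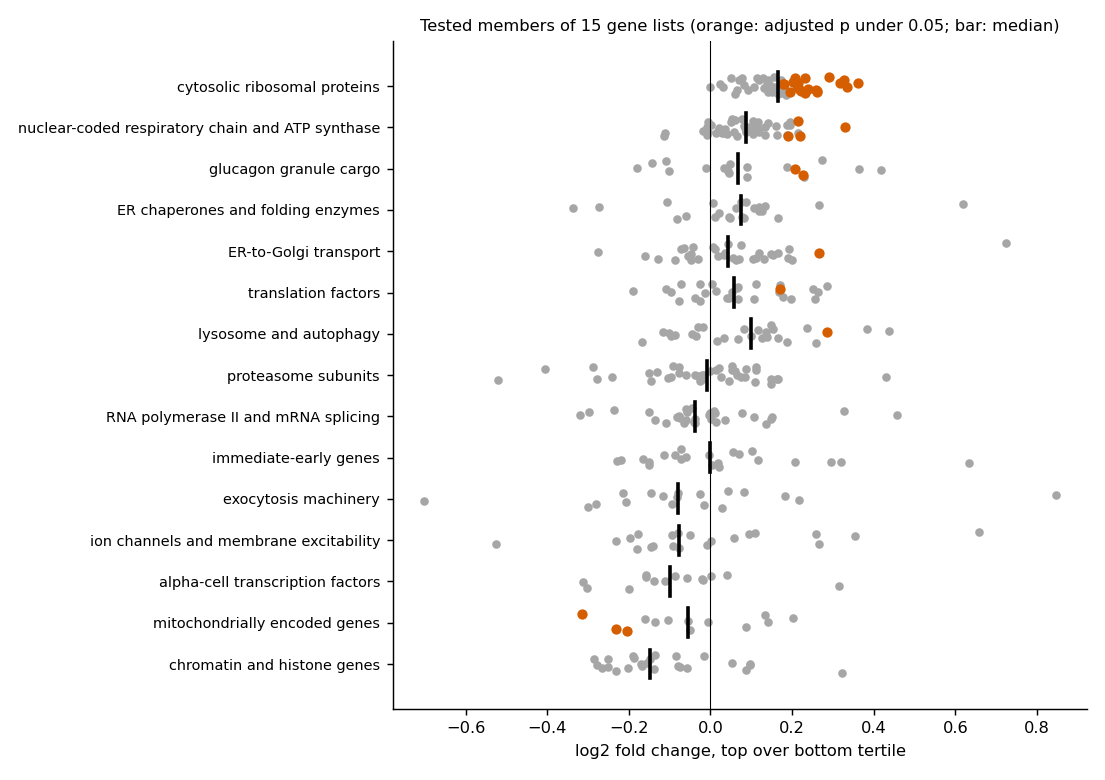
Each point is the log2 fold change of 1 tested gene in top over bottom tertiles, for 15 of the gene lists, with called genes in orange and the median of each list as a black bar. The ribosomal protein genes lie to the right of 0 with a median of 0.17, and the chromatin genes lie mostly to the left with a median of -0.15.

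Levels of markers of other cell types in the α-cell sums were uneven over animals. Of 10 tested β-cell markers, 5 δ-cell markers, 4 PP-cell markers, 6 ductal, 5 stellate, 2 immune and 1 endothelial marker none was called by edgeR, and 3 β-cell markers and none of the others had an unadjusted p under 0.05. Of all 11116 genes tested, 1138 had an unadjusted p under 0.05. The summed level of the 15 β-cell markers was between 1591 and 13965 CPM in the bottom tertiles. In the top tertiles it was between 2377 and 18331 CPM, and it was higher there in 12 animals. The summed acinar markers, of which 10 of 15 are in the files and 1 was tested, were between 0.384 and 679 CPM in the bottom tertiles and between 4.38 and 9251 CPM in the top tertiles, higher in the top tertile in 9 animals. SPINK1, the tested one, had medians of 0.786 CPM (0 to 28.8) in the bottom and 2.79 CPM (0 to 616) in the top tertiles. It was higher in the top tertile in 12 animals and lower in 3, with a log2 fold change of 1.46 ± 0.53 (adjusted p = 0.264, edgeR), and passed the test without the 3 animals, at 1.86 (adjusted p = 0.0253). Its highest level was in the top tertile of young female 2. The stellate markers were between 9.12 and 297 CPM in the bottom and 7.10 and 1355 CPM in the top tertiles, higher in 5 animals. CFTR of the ductal list, CD3E of the immune list and SLC4A1 of the red blood cell list were at 0. The source of these transcripts and their part in the results above were not tested.

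The split by macaque UMIs alone, in place of the ratio, gave other genes. With it 81 of 11067 genes rose and 62 fell, and 12 calls were shared with the 102 calls of the ratio. Of the ribosomal protein genes 4 of 55 rose, with a median of 0.06, and RPL31 and RPL41 had values of -0.041 and -0.064. TTR fell in this split by 1.19 on the log2 scale (adjusted p = 6.3e-20, edgeR), against the -0.10 of the ratio. GCG, which chose the cells and whose test is not read, had a value of -1.27, against -0.11. Of the 13 mitochondrially encoded genes 10 fell, with a median of -0.30. When the ratio was ranked among cells with similar spike-in UMIs of the same animal, an alternative chosen after seeing the data, 23 ribosomal protein genes rose and 7 mitochondrially encoded genes fell. With every cell thinned to 10000 macaque UMIs these counts were 19 and 5, with tertiles taken within each library they were 13 and 6, and with GCG at least 5 times the next hormone they were 12 and 1. Leaving out 1 animal at a time gave 7 to 22 ribosomal protein genes called higher and 1 to 4 mitochondrially encoded genes called lower.

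On the scale of transcripts per spike-in UMI, which the ranking itself raises, 11052 of 11116 genes (99.4%) were higher in the top tertile on average, with a median log2 difference of 0.94. This is a description without a test. RPL30 stood at 1.29 on this scale, PCSK2 at 1.13, GCG at 0.82, COX3 at 0.61 and STMN2 at 0.21. All 11 genes called lower as a share of the RNA were thus still higher per spike-in UMI.

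The breadth of the transcriptome was compared at equal depth. When each α-cell was thinned to 10000 macaque UMIs, which left out 3 cells of the top and 29 of the bottom tertiles, a cell of the top tertiles held a mean of 2365 genes ± 374 (SD, n = 16 animals) and one of the bottom tertiles 2228 genes ± 197. The difference of 136 genes ± 226 was positive in 13 animals (exact sign-flip permutation test, two-sided, p = 0.0321, adjusted p = 0.0643 for 2 measures), and it was negative in the 3 animals named above. Over 16 animals it did not pass after adjustment. Over the other 13 it was 234 genes ± 83.4 and positive in each (unadjusted p = 2.4e-04, exact permutation test). Leaving the 3 out removed every negative difference, which fixed this p at the smallest value the test can give, so it is not read as a result. Without thinning, the median number of genes per cell was 4096 in the bottom and 4688 in the top tertiles. The 50 most abundant genes of a cell took 35.8% ± 1.99 of its UMIs in the bottom and 35.6% ± 4.56 in the top tertiles, lower in the top tertile in 11 animals (p = 0.839, exact permutation test). The difference lay between -5.66 and 9.05 percentage points over animals. It was -0.21 points over 16 animals. Without the 3 animals it was -1.84 points and negative in 11 of 13 (unadjusted p = 0.00903, exact permutation test). These 3 animals had the largest positive differences, so this p is not read as a result.

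The second question was whether the RNA content of α-cells differs with age. The median log2 UMI ratio per animal was between 4.05 and 4.30 in young animals (median 4.18) and between 3.86 and 4.64 in old animals (median 4.20). The values of the old animals spread on both sides of the young ones. The means were 4.18 ± 0.09 (SD, n = 8) and 4.18 ± 0.26 (n = 8), with a difference of 0.01 ± 0.10 (SE) on the log2 scale (exact permutation test, two-sided, p = 0.945). The difference was -0.02 in females (p = 0.857, exact permutation test of 4 against 4, which cannot go below 0.0286) and 0.04 in males (p = 0.886, exact). A change with age was not detectable in α-cells at this spread.

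β-cells of the same libraries, chosen by the same rule with INS in place of GCG (1086 cells, at least 5 in 16 of 16 animals), served as a comparison within animals. Their median log2 ratio was between 3.74 and 4.43 in young animals and between 4.10 and 4.95 in old animals. In young animals the α-cell value minus the β-cell value lay between -0.29 and 0.42, on both sides of 0, while in old animals it lay between -0.70 and -0.20 and was below 0 in 8 of 8. The means were 0.01 ± 0.20 and -0.34 ± 0.16, a difference of -0.35 ± 0.09 (SE; exact permutation test, two-sided, p = 7.8e-04, adjusted p = 0.00466 over 6 comparisons). It was -0.24 in females (p = 0.0286, the smallest value 4 against 4 animals allow in this exact test, adjusted p = 0.0857) and -0.45 in males (p = 0.0571, exact, adjusted p = 0.114). On macaque UMIs alone the difference was -0.43 (exact p = 0.00202). The β-cell values alone had means of 4.17 ± 0.23 in young and 4.53 ± 0.25 in old animals. Their difference was 0.36 ± 0.12 (SE; exact permutation test, two-sided, unadjusted p = 0.00948), while that of α-cells was 0.01. Some animals had few β-cells, with 8 in young female 2, 16 in young female 3 and 17 in old male 4.

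**Figure D5:**
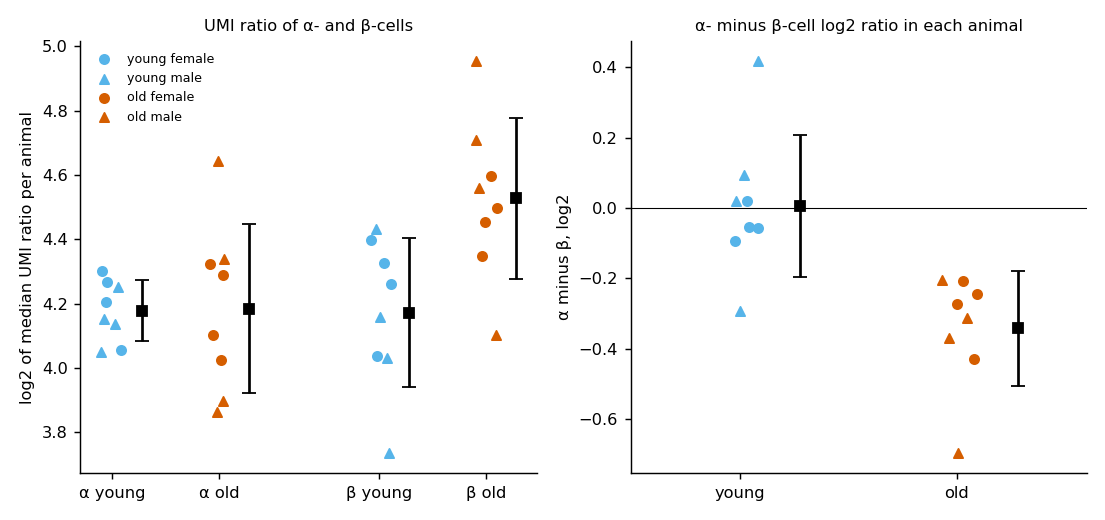
The left panel plots the log2 of the median UMI ratio of α-cells and β-cells in each of 8 young and 8 old animals (circles female, triangles male), and the right panel the α-cell minus the β-cell value in each animal. Black squares and bars are the mean and SD over 8 animals. The right panel shows values from -0.29 to 0.42 in young and from -0.70 to -0.20 in old animals.

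A difference between young and old animals in the gene pattern of the tertiles was not detectable. No gene was called for an interaction of tertile and age by edgeR (0% of 11116, 448 at an unadjusted p under 0.05, lowest adjusted p = 1.000) or by DESeq2 (0 genes, 670 at an unadjusted p under 0.05), and none for tertile and sex (0%, 535 at an unadjusted p under 0.05). The log2 ratio of the ribosomal protein share between top and bottom tertiles was 0.15 ± 0.09 (SD, n = 8) in young and 0.16 ± 0.14 (n = 8) in old animals. That of the mitochondrially encoded share was -0.22 ± 0.09 and -0.17 ± 0.18. The nuclear-coded respiratory chain share had a log2 ratio of 0.02 ± 0.10 in females, above 0 in 5 of 8, and of 0.15 ± 0.05 in males, above 0 in 8 of 8, a difference that was not tested. FKBP11 had mean log2 ratios of 0.81 in young and 0.77 in old animals, COX3 of -0.35 and -0.28, and STMN2 of -0.45 and -0.96.

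The same split in β-cells of 15 animals, with 5 to 63 cells per tertile, gave 0 rises and 6 falls among 8583 genes (0.0699%, edgeR, 354 at an unadjusted p under 0.05). The falls were the mitochondrially encoded COX3, COX2, ATP6 and CYTB, with log2 fold changes from -0.53 to -0.44, and INS (-0.36) and TTR (-0.29). INS chose these cells, so its call is not read. The 55 ribosomal protein genes had a median of 0.18 in β-cells, with 49 above 0 and none called.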

How the data were processed

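Single islet cells were sequenced in 64 libraries. Per the labels and the study's methods, the authors trimmed the reads, used TopHat2 2.0.12 for alignment to the assembly Macaca_fascicularis_5.0 and HTSeq to assign reads with 1 mapped place to genes, merged reads that shared a UMI, and deposited the resulting raw UMI counts per cell. The labels name a modified SMART-seq2 protocol and the methods a modified STRT protocol. The submitters' notes also name CASAVA 1.8. Spike-in RNAs (92 ERCC and 3 RGC) were counted with the 21041 macaque genes and left out of CPM. The RGC RNAs gave 19 UMIs in α-cells, so the ratio is in practice one to ERCC. Doublets were not called.

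Sums of counts per animal and tertile entered edgeR 4.0.16 (R 4.3.3; TMM, filterByExpr, animal as a block, quasi-likelihood test, Benjamini-Hochberg, 0.05). The 2 sums of an animal come from the same individual, as the labels give it. Levels are TMM-normalized CPM. Values per animal were compared by exact permutation tests. The edgeR code was tested on simulated data. The genes named are the 12 largest rises and 12 largest falls with a symbol, at least 20 CPM, an adjusted p under 0.05 and the same direction in at least 15 of 16 animals (33 rises and 5 falls met this), the hormones, and in each list described the 3 most abundant genes, where the text uses them, and every called gene where at most 5 were called. Gene lists were written from general knowledge. Members and lists were chosen with earlier results of these data known. Alternatives were DESeq2 1.42.0, other scalings, no filter on low counts, thinning, other splits and stricter cells, and leaving out each animal. No sequences or coordinates are given, since no genome of the authors' build was used here.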

Additional observations from a re-analysis of the deposited data

Results flagged for a closer look

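Values per animal were searched for 1 animal far from the other 7 of its age group, in 86 groups of values, of which chance would give about 1 in 20. There were 15. Young male 3 accounted for several. Its log2 ratio of top over bottom tertile was -1.98 for spike-in UMIs (others -0.93 to -0.44), -0.47 for genes per cell (others 0.13 to 0.36) and 0.70 for GCG (others -0.41 to -0.01), and its difference in genes at 10000 UMIs was -187 (others 148 to 356). In the same animal the log2 ratio was -1.02 for SPEN (others -0.49 to -0.06), -0.88 for ARGLU1 (others -0.41 to -0.07), -0.59 for TPM3 (others -0.24 to 0.06), 0.52 for COX7C (others 0.03 to 0.22) and 0.50 for ATP5I (others 0.01 to 0.22).

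Old male 3 had the lowest α-cell minus β-cell log2 ratio, at -0.70 (other old animals -0.43 to -0.20). Old female 1 had log2 ratios of -0.34 for HEXA (others 0.15 to 0.56) and -2.58 for STMN2 (others -1.30 to -0.15). Young male 2 had -0.43 for ACYP2 (others 0.27 to 0.72). Old male 4 had 0.65 for RPL41 (others -0.02 to 0.28). Young male 1, whose COX2 level was the lowest, had 0.42 for COX2 (others -0.54 to -0.17).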

How the results depend on the processing

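The 91 genes called higher and 11 called lower came from a fit with the animal as a replicate block. Without the replicate block, which ignores that the sums are paired by animal, edgeR called 0 higher and 0 lower, with 479 at an unadjusted p under 0.05. Calls numbered 205 higher and 59 lower with DESeq2, and 39 and 1 where GCG was at least 5 times the next hormone. They numbered 152 and 41 without old female 1, old female 2 and young male 3. With tertiles taken within tertiles of spike-in UMIs, where these were similar but not equal, they numbered 127 and 45. The number called lower was 17 without a filter on low counts, 22 after thinning, 24 with tertiles within library, 62 by macaque UMIs alone and 7 without the top 5% of UMIs. Leaving out 1 animal gave 34 to 128 higher and 4 to 25 lower. The lowest count of rises was without old male 1 (34), followed by young male 1 (36), young female 2 (52) and old male 2 (53). Falls numbered 25 without old female 1, 17 without old female 2, 4 without old male 2 and 6 without old male 3. The interaction with age gave 4 calls without the filter on low counts and 0 to 0 when any 1 animal was left out.

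All p-values of the alternatives below are unadjusted. The main difference in genes at 10000 UMIs had p = 0.0321 before and 0.0643 after adjustment (exact permutation test). The difference was 119 without the top 5% of UMIs (p = 0.0666, exact permutation test). It was 89.6 where GCG was at least 5 times the next hormone (p = 0.207, same test). By the same test it was 237 within tertiles of spike-in UMIs (p = 9.2e-05) and 172 with tertiles within library (p = 8.5e-04). It was 148 with at least 20000 macaque UMIs (p = 0.00430) and 111 with the α-cells split at the median (p = 0.0120). By macaque UMIs alone it was 316 (p = 3.1e-05). Without the 3 animals it was 234 (p = 2.4e-04), where leaving them out fixed the p. It was 121 to 171 without 1 animal, with an unadjusted p above 0.05 for 6 of 16 animals. The share of the 50 most abundant genes differed by -13.0 points by macaque UMIs alone (exact permutation p under 0.05). Within tertiles of spike-in UMIs it differed by -4.91 points (exact permutation p under 0.05). Without the 3 animals it differed by -1.84 points, where leaving out the largest positive differences shaped the p. Without 1 animal it differed by -0.83 to 0.15 points. Content by age lay between -0.06 and 0.05, and the α-cell minus β-cell difference between -0.39 and -0.29, without 1 animal. By unadjusted p, no alternative changed either call. The latter difference was -0.26 with the mean of library medians (p = 0.0368, exact permutation test). With the hormone at least 5 times the second it was -0.51 (p = 0.0286, exact), a test on fewer animals. The RGC RNAs alone were too few to be run.

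By macaque UMIs alone, the log2 fold change turned sign for ACYP2 (-0.16), GAD2 (-0.68), RPL31 (-0.041), RPL41 (-0.064), TPT1 (-0.018), TPM3 (0.019), STMN2 (0.16) and CDC5L (0.13) among called genes and was called against the sign of the uncalled value for COPE (0.30), GABARAP (0.20), INS (-0.67), ERO1B (-0.50) and SST (-0.77). INS and SST are hormones that the rule used, so their calls are not read. The cause of the turns was not tested. Over the 32 called genes named, 693 of 992 alternative values kept the direction and the call, 291 lost the call and 8 turned. Ratios with few spike-in UMIs are the least precise, with 118 the lowest count in an α-cell.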

Other observations

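Outside the lists and below the naming rule, CYTL1, a secreted cytokine-like protein, was called higher in the top tertile, with a log2 fold change of 0.95 ± 0.18 (adjusted p = 0.00697, edgeR) and mean levels of 97.0 and 201 CPM in the bottom and top tertiles. It was higher in 13 of 16 animals, under the 15 the rule asks. CREM, a transcription factor that responds to cAMP, had 36.4 and 64.04 CPM and a log2 fold change of 0.69 ± 0.14 (adjusted p = 0.0138) in 14 animals. RAMP2, a partner of calcitonin-family receptors, had 194 and 241 CPM and 0.33 ± 0.07 (adjusted p = 0.0188) in 13 animals. ATOX1, a copper chaperone, had 445 and 523 CPM and 0.23 ± 0.05 (adjusted p = 0.0110) in 16 animals. These genes were chosen after their values were seen.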
